A study of Bos taurus with 12 samples.

Results

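The 9 genes described here encode the myosin thick filament of the heart and the proteins that tune it: the heavy chains MYH7 and MYH7B, the light chains MYL2, MYL3, MYL4, MYL6 and MYL7, the light chain kinase MYLK3 and the myosin-binding protein MYBPC3. They were chosen by symbol from a table of 24616 genes of the bovine right ventricle, and all 9 were among the 11374 genes that reached at least 1 RPKM (a number of reads divided by exon length and by the depth of the library) in at least 3 libraries. Where a symbol had more than 1 row, the row of highest mean was taken, which applied to MYH7 alone.

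A muscle myosin is a hexamer of a pair of heavy chains, which carry the motor, each with an essential and a regulatory light chain around its neck. In mammals the ventricle is known for the regulatory light chain MYL2 and the essential light chain MYL3, and the atrium for their counterparts MYL7 and MYL4. Phosphorylation of the regulatory light chain, in which MYLK3 is the cardiac kinase, and cardiac myosin-binding protein C (MYBPC3) both modulate how strongly myosin heads engage actin.

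The tissue was the right ventricle, which works against the pressure of the pulmonary artery, of 12 Angus steers of wild-type genotype, 1 animal per library. All were born and kept at an elevation of 2170 m (7120 ft), weaned and castrated at 6 to 8 months and slaughtered at 13 to 15 months, so every group lived under chronic hypoxia and none was at low altitude. By catheterization of the right heart and by clinical signs, 6 steers were placed in the group of low pulmonary artery pressure (PAP), which the labels call hypoxia-tolerant, 3 had pulmonary hypertension without heart failure (PH-healthy) and 3 had pulmonary hypertension with failure of the right heart (PH-failure). The design addresses which transcripts differ with pressure and with failure.

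Recovered depths were 14739237 to 31090198 mapped reads per library, and each of the 9 genes had reads in all 12 libraries. The column headers carry codes with 55 or 56, here called library series 55 and 56. Series 55 holds 3 low PAP, 2 PH-healthy and 1 PH-failure library. The headers also give each series its own sequencing lane code, so series and lane cannot be told apart. The ventricular markers MYL2, MYL3 and MYH7 were among the abundant transcripts of every library. Atrial markers were not all absent: MYL7 averaged 4812 RPKM in low PAP, and NPPA and MYBPHL had reads in every library, while BMP10 was at 0 in all 12. Both PH groups share the 6 low PAP libraries as their control. The median log2 fold change over all tested genes was 0.21 in PH-failure and 0.18 in PH-healthy against low PAP, and it was 0.01 and -0.00 after median-ratio scaling.

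**Figure D1:**
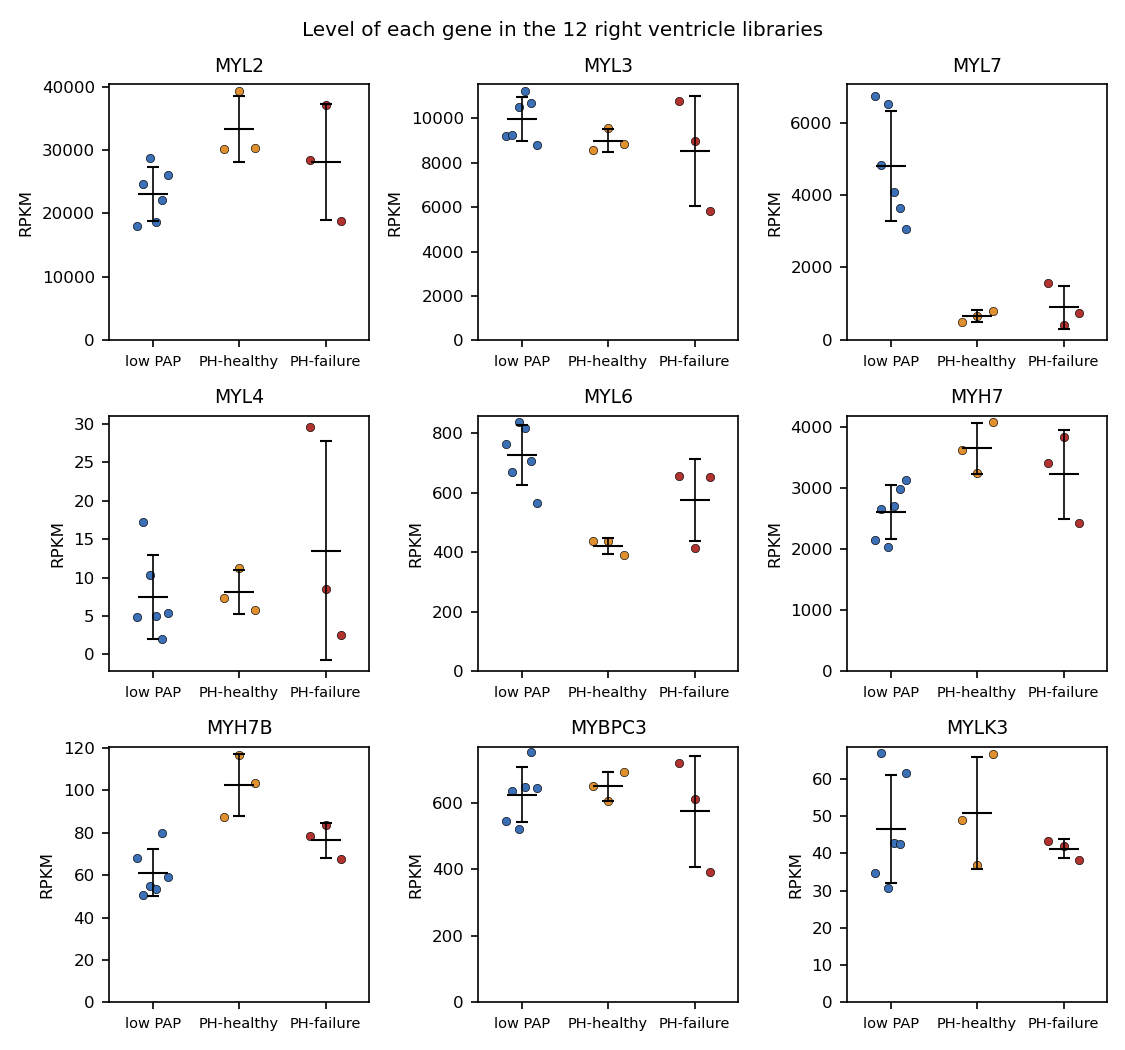
RPKM (vertical axes, each starting at or just below 0) of the 9 genes in the low PAP, PH-healthy and PH-failure libraries, with 1 point per animal and bars for the mean ± SD. MYL7 lies at or above 3065 RPKM in the 6 low PAP libraries and at or below 1560.5 RPKM in the 6 others, whereas the groups overlap in MYL4, MYLK3 and MYBPC3.

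RPKM divides by exon length, so levels can be set side by side between genes on that scale. In low PAP the order of mean RPKM was MYL2, MYL3, MYL7, MYH7, MYL6, MYBPC3, MYH7B, MYLK3 and MYL4. Of the neighbours in that order, MYL7 lay above MYH7 in 5 of 6 libraries, MYL6 above MYBPC3 in 4 of 6 and MYH7B above MYLK3 in 4 of 6, so these pairs were not separated beyond the spread between animals. The other neighbours were separated in all 6. In both PH groups MYH7 took the third place, above MYL7 in all 3 libraries of each group. In PH-healthy MYL7, MYBPC3 and MYL6 came next, with MYL7 above MYBPC3 in 2 of 3 libraries and MYBPC3 above MYL6 in all 3. In PH-failure the order was MYL7, MYL6 and MYBPC3, with MYL7 above MYL6 in 2 of 3 libraries and MYL6 above MYBPC3 in 1 of 3.

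Against low PAP, 1 of the 9 genes fell and none rose in PH-failure, at an adjusted p under 0.05 (limma on log2(RPKM + 1) with Benjamini-Hochberg adjustment over all 11374 genes). Of all tested genes, 33.8% passed in that comparison, 28.0% higher and 5.79% lower. In PH-healthy 2 genes rose (MYH7, MYH7B) and 2 fell (MYL7, MYL6), beside 34.7% of all tested genes, 26.6% higher and 8.15% lower. With both PH groups together the same 4 genes passed in the same directions, beside 47.7% of all genes, 37.3% higher and 10.4% lower. With 9 genes, 2 rises are no more than the background share of rises, and 1 or 2 falls lie above that of falls but are too few to be read as a result about the group. The libraries of the groups compared did not overlap for 1 gene in PH-failure (22.3% of all tested genes), for 5 in PH-healthy (34.3%) and for 1 with both PH groups together (16.7%). The median log2 fold change of the 9 genes was -0.12 in PH-failure and 0.14 in PH-healthy. The split of all calls into higher and lower depends on scaling: it was 3190 higher and 658 lower in PH-failure, but 1530 and 1681 after median-ratio scaling and 1133 and 1418 after quantile normalization. In PH-healthy it was 3024 and 927, but 1824 and 1861 after median-ratio scaling and 1424 and 1622 after quantile normalization. With both PH groups together it was 4243 and 1178, but 2504 and 2542, and 1930 and 2405. The drop of MYL7 passed in both PH groups under each of these scalings.

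**Figure D2:**
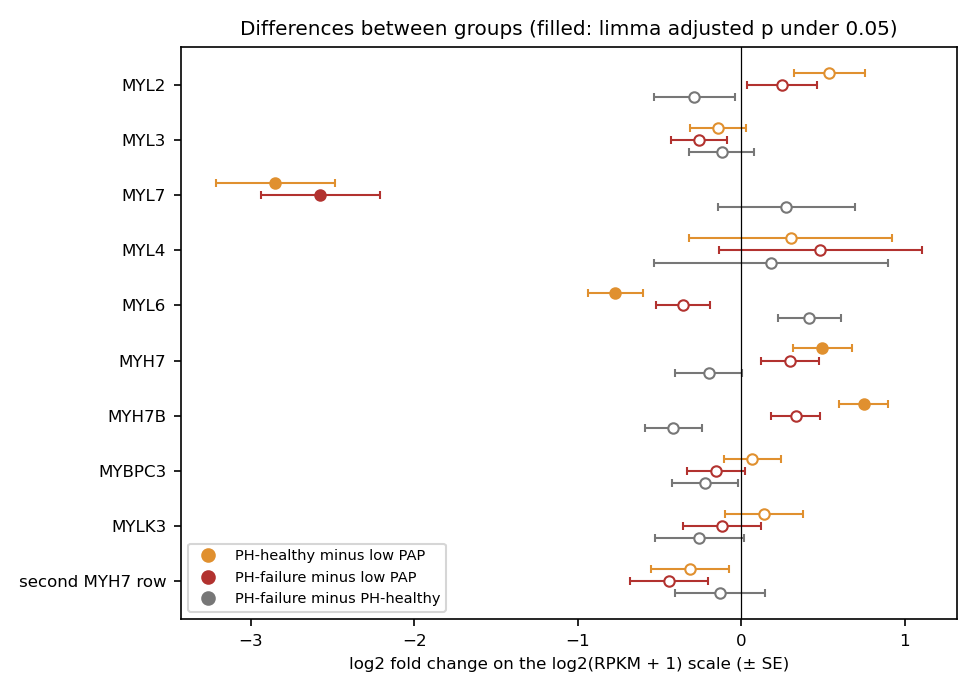
Log2 fold change ± SE (horizontal axis, on the log2(RPKM + 1) scale) of the 9 genes and of a second row with the symbol MYH7, for PH-healthy minus low PAP, PH-failure minus low PAP and PH-failure minus PH-healthy. Filled points passed an adjusted p under 0.05: MYL7 in both PH groups, and MYL6, MYH7 and MYH7B in PH-healthy.

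MYL7, the regulatory light chain of atrial muscle, fell in both PH groups and was the member with the largest change in each. The low PAP libraries held 3065 at the lowest, 4454 at the median and 6738 at the highest RPKM. The PH-healthy libraries held 486, 669.6 and 801 RPKM and the PH-failure libraries 1560.5, 403 and 736 RPKM for replicates 1 to 3. No PH library reached the lowest low PAP library, and PH-failure replicate 1 was the highest of the 6 PH libraries. Means were 4812 ± 1525 (SD, n = 6), 652 ± 158 (n = 3) and 899.9 ± 596 RPKM (n = 3), 7.38-fold lower in PH-healthy and 5.35-fold lower in PH-failure than in low PAP. On the log2 scale the change was -2.85 ± 0.36 in PH-healthy (adjusted p = 0.000407) and -2.57 ± 0.36 in PH-failure (adjusted p = 0.00115, limma). Within library series 55 and 56 it was -2.51 and -3.39 in PH-healthy and -2.50 and -2.68 in PH-failure. In these bulk libraries fewer cells of a type and less RNA per cell cannot be told apart.

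MYL2, the regulatory light chain of the ventricle, was the most abundant of the 9 genes in every group. Low PAP libraries held 18096 at the lowest, 23365 at the median and 28811 at the highest RPKM. PH-healthy libraries held 30177, 39265 and 30366 RPKM, all above every low PAP library, and PH-failure libraries 28382, 37055 and 18793 RPKM, of which replicate 3 lay within the low PAP range. The log2 fold change was 0.54 ± 0.21 in PH-healthy (adjusted p = 0.0669) and 0.25 ± 0.21 in PH-failure (adjusted p = 0.374, limma), so neither passed.

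The share of MYL7 in the summed RPKM of both regulatory light chains was 17.4% ± 5.57 (SD, n = 6) in low PAP, from 10.5% to 27.1%. It was 1.59%, 1.68% and 2.57% in the PH-healthy libraries and 5.21%, 1.08% and 3.77% in the PH-failure libraries, all below the low PAP range. Such a ratio within a library does not change with the scaling of that library. The mean log2 of MYL7 over MYL2 was lower by 3.39 in PH-healthy, a 10.5-fold difference, and by 2.83 in PH-failure, a 7.09-fold difference. Each had a two-sided exact permutation p = 0.0119, the smallest that 6 against 3 libraries allow. Over the 36 tests of 9 ratios in 4 comparisons the adjusted p was 0.0476 for both. Within library series 55 the differences were -2.95 in PH-healthy and -2.06 in PH-failure, and within series 56 they were -3.96 and -3.36.

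**Figure D3:**
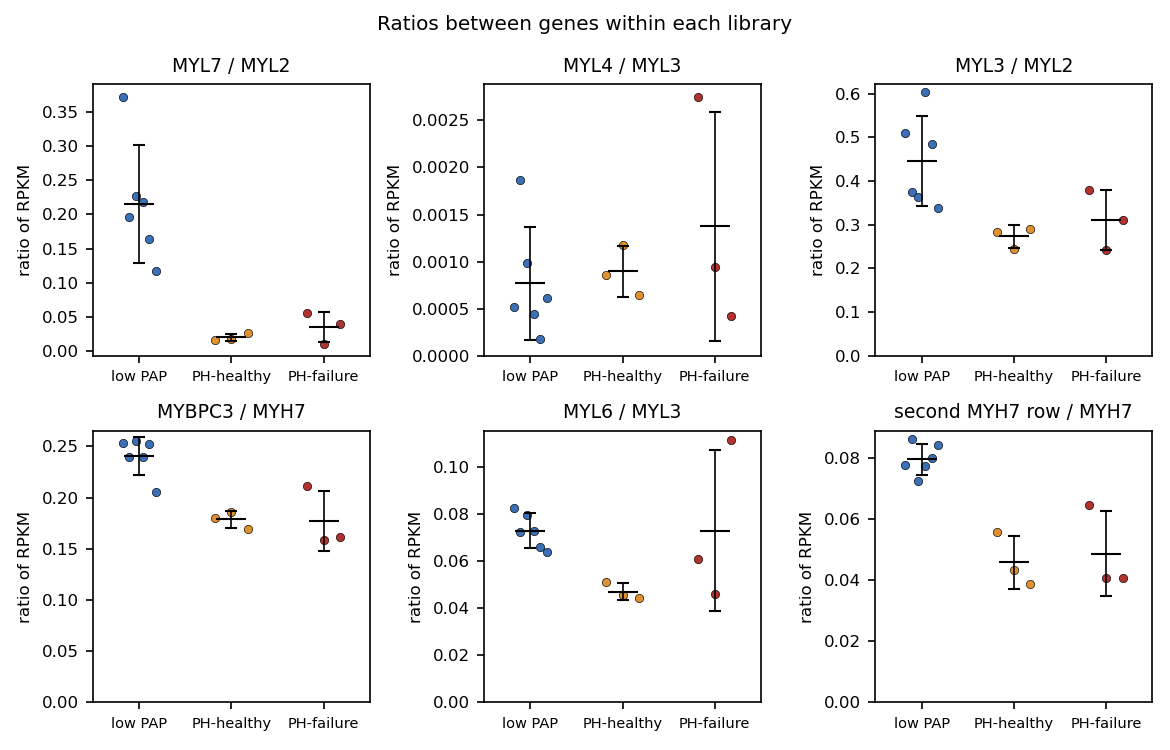
Ratio of RPKM between pairs of genes within each library (vertical axes), with 1 point per animal and bars for the mean ± SD in the 3 groups. MYL7 over MYL2 and the second MYH7 row over MYH7 are lower in every PH library than in every low PAP library, while MYL4 over MYL3 overlaps between all groups.

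Since MYL7 is an atrial gene, the other atrial markers are given beside it. Of 16 listed markers, 15 were symbols in the table and 12 were tested, 2 of them the members MYL7 and MYL4. In PH-failure 4 of the 12 rose and 3 fell, beside 28.0% and 5.79% of all tested genes. In PH-healthy 3 rose and 2 fell, beside 26.6% and 8.15%. The list medians were 0.30 in PH-failure and 0.20 in PH-healthy, beside 0.21 and 0.18 over all tested genes. Among the listed markers, BMP10 was at 0 in all 12 libraries and SLN is not a symbol in the table. MYBPHL, a homologue of myosin-binding protein H known from atrial and conduction muscle, fell in both groups, from 8.91 ± 4.32 RPKM (SD, n = 6) in low PAP to 2.00 ± 0.561 (n = 3) in PH-healthy (log2 fold change -1.59 ± 0.41, adjusted p = 0.0128) and 2.35 ± 1.62 (n = 3) in PH-failure (-1.53 ± 0.41, adjusted p = 0.0167, limma). The potassium channel gene KCNJ5 fell in PH-failure, to 6.65 ± 4.30 RPKM (n = 3) from 15.0 ± 4.88 (n = 6; adjusted p = 0.0157, limma), but did not pass in PH-healthy (adjusted p = 0.259). For both MYBPHL and KCNJ5 the PH-failure libraries overlapped those of low PAP.

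Other atrial markers moved the other way or did not pass. The secretory granule enzyme PAM rose from 49.9 ± 10.4 RPKM (SD, n = 6) to 127 ± 35.8 in PH-healthy (n = 3; adjusted p = 0.00115, limma) and 128 ± 11.9 in PH-failure (n = 3; adjusted p = 0.00136). The Wnt modulator DKK3 and the gap junction gene GJA5 also rose in both groups, and the nuclear receptor NR2F2 rose in PH-failure, a call lost after median-ratio scaling and after quantile normalization. NPPA, atrial natriuretic peptide, averaged 33.6 ± 33.9 RPKM in low PAP and did not pass in PH-healthy (45.9, 80.8 and 68.9 RPKM, adjusted p = 0.220) or PH-failure (246, 13.0 and 29.4 RPKM, adjusted p = 0.416, limma). The channel KCNA5 did not pass either, at 2.73, 3.19 and 2.08 RPKM in the means of low PAP, PH-healthy and PH-failure. The summed RPKM of the 13 markers in the table that are not among the 9 genes was 151 to 318 in low PAP, 403 to 517 in PH-healthy and 345 to 643 in PH-failure. PAM and DKK3 held most of this sum in the mean of each group, so it says little of the less abundant MYBPHL and KCNJ5. The part of atrial tissue in the level of MYL7 was not tested.

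**Figure D4:**
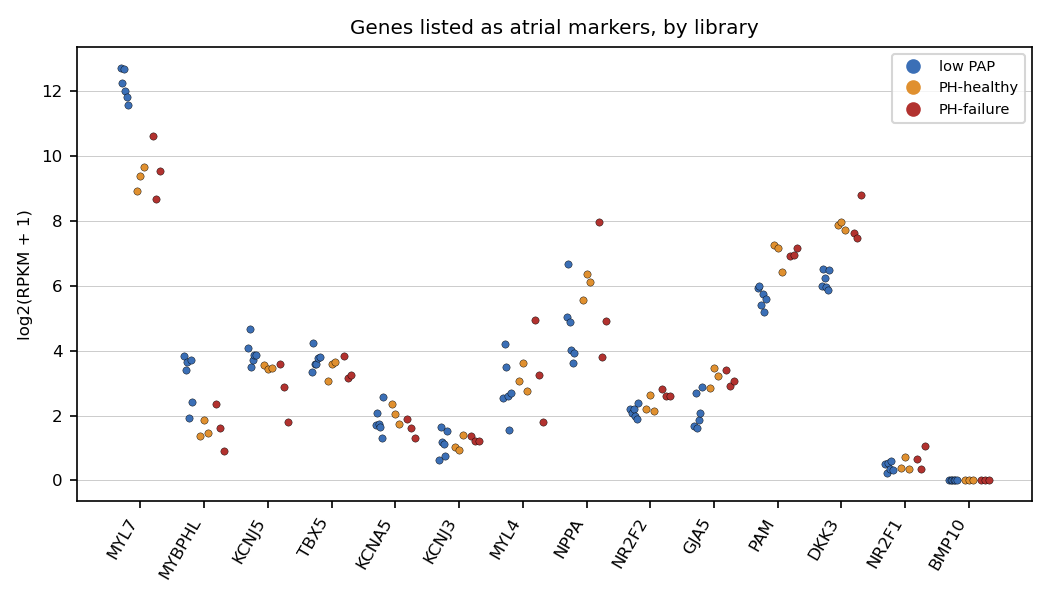
Level of genes listed as atrial markers (vertical axis, log2(RPKM + 1)), with 1 point per library coloured by group. MYL7 is lower in every PH library than in every low PAP library. MYBPHL is lower on average in both PH groups, with overlap between PH-failure and low PAP. PAM and DKK3 are higher, NPPA overlaps between groups, and BMP10 is at 0 in all 12 libraries.

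MYH7, the slow beta heavy chain that is the main motor of the ventricle in large mammals, rose in PH-healthy. Its row (ENSBTAG00000009703) lies on chromosome 10 from 21325413 to 21345624 in the table's coordinates, whose build the sources used here do not name. Low PAP libraries held 2041 at the lowest, 2680.2 at the median and 3129 at the highest RPKM, and PH-healthy libraries 3621, 3251 and 4088 RPKM, all above the low PAP range, with means of 2610.5 ± 436 (SD, n = 6) and 3653 ± 419.5 (n = 3). PH-failure libraries held 3413, 3840.2 and 2424 RPKM, of which replicate 3 lay within it. The log2 fold change was 0.50 ± 0.18 in PH-healthy (adjusted p = 0.0460) and 0.30 ± 0.18 in PH-failure (adjusted p = 0.202, limma). Within series 55 and 56 it was 0.45 and 0.54 in PH-healthy, and -0.14 and 0.54 in PH-failure, where series 55 holds replicate 3 alone. The PH-healthy call is a narrow one, which passed in 8 of 22 alternative settings, with adjusted p from 0.0228 to 0.275, and was 0.27 on the log2 scale after median-ratio scaling. With both PH groups together it was 0.40 ± 0.15 (adjusted p = 0.0385) and passed in 10 of 22. The PH-healthy call was lost when any of low PAP replicates 1 to 5, or any PH-healthy replicate, was left out (adjusted p = 0.0505 to 0.166, limma). The call for both PH groups did not survive leaving out low PAP replicate 1, 2, 3 or 4, replicate 1 or 3 of PH-healthy, or replicate 1 or 2 of PH-failure (0.0533 to 0.0903).

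A second row with the symbol MYH7 (ENSBTAG00000040053), not counted among the 9 genes, lies 4672 bases further on chromosome 10, from 21350296 to 21377051. No row of the table carries the symbol MYH6. In the RefSeq annotation of the bovine assembly ARS-UCD2.0, the neighbours of MYH7 on that side are MIR208B, MYH6 and MIR208A, followed by CMTM5 and IL25. In the deposited table bta-mir-208b lies within the MYH7 row and bta-mir-208a within the second row, with CMTM5 and IL25 next. In that order the second row stands where RefSeq places MYH6, but the table itself gives it no other name. The sources used here do not state how reads that match both rows were assigned, so the split between them is uncertain.

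The second row held 147 at the lowest, 219 at the median and 263 at the highest RPKM in low PAP, 201, 140.3 and 157 RPKM in PH-healthy and 220.3, 156 and 98.2 RPKM in PH-failure. It did not pass in either group on its own (log2 fold change -0.31 ± 0.24, adjusted p = 0.319, and -0.44 ± 0.24, adjusted p = 0.158, limma). As a percentage of MYH7 it was 7.22% to 8.61% in low PAP, with a mean of 7.94% ± 0.50 (SD, n = 6). It was 5.55%, 4.32% and 3.85% in the PH-healthy libraries and 6.45%, 4.06% and 4.05% in the PH-failure libraries, with no overlap with low PAP. This ratio was chosen after its values were seen, so its p-values take no account of that choice and are given as a description. Its adjusted p cannot be set against those over the 36 planned tests. Its log2 was lower by 0.81 in PH-healthy and by 0.74 in PH-failure (two-sided exact permutation p = 0.0119 for each, and 0.0397 after adjustment over all 40 ratio tests). Within library series 55 the differences were -0.95 in both groups, and within series 56 they were -0.53 in PH-healthy and -0.65 in PH-failure.

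MYH7B, a slow-type heavy chain gene that in mouse and human heart yields little protein, rose in PH-healthy. Low PAP libraries held 50.4 at the lowest, 57.0 at the median and 80.0 at the highest RPKM, PH-healthy libraries 87.5, 117 and 103 RPKM and PH-failure libraries 78.3, 83.5 and 67.5 RPKM. All PH-healthy libraries lay above the low PAP range and above all PH-failure libraries, while PH-failure overlapped low PAP. Means were 61.1 ± 11.1 (SD, n = 6), 103 ± 14.7 (n = 3) and 76.4 ± 8.13 RPKM (n = 3). The log2 fold change was 0.75 ± 0.15 in PH-healthy (adjusted p = 0.00415) and 0.33 ± 0.15 in PH-failure (adjusted p = 0.0991, limma), and in PH-healthy it was 0.77 within series 55 and 0.61 within series 56. Its ratio to MYH7 did not differ beyond the spread (log2 difference 0.26 in PH-healthy, two-sided exact permutation p = 0.298, and 0.04 in PH-failure, p = 0.881). MYH7B was called in PH-healthy in 22 of 22 alternative settings, and in PH-failure in 1 of 22, without low PAP replicate 5 (0.41, adjusted p = 0.0425).

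Among the essential light chains, MYL3, the ventricular form, did not pass in any comparison. Low PAP libraries held 8813 at the lowest, 9874 at the median and 11259 at the highest RPKM, PH-healthy libraries 8580.2, 9589.6 and 8836 RPKM and PH-failure libraries 10770.2, 8994 and 5842 RPKM, with replicate 3 of PH-failure below all others. The log2 fold change was -0.14 ± 0.17 (95% interval -0.51 to 0.23, adjusted p = 0.540) in PH-healthy and -0.26 ± 0.17 (-0.63 to 0.11, adjusted p = 0.243, limma) in PH-failure.

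Relative to MYL2, its ventricular partner, MYL3 was lower in PH. MYL3 stood at 44.6% ± 10.3 of MYL2 in RPKM in low PAP (SD, n = 6), at 27.3% ± 2.53 in PH-healthy (n = 3) and at 31.1% ± 6.84 in PH-failure (n = 3). With both PH groups together the log2 ratio was lower by 0.60 (two-sided exact permutation p = 0.00866, adjusted p = 0.0476 over 36 tests). For PH-healthy alone it was lower by 0.68 with no overlap (exact p = 0.0238, adjusted p = 0.0714), and for PH-failure by 0.51 with overlap (exact p = 0.0595, adjusted p = 0.165), so neither group alone passed. MYL2 over MYH7 did not pass, with a log2 difference of 0.04 in PH-healthy and -0.05 in PH-failure (exact permutation p = 0.905 and 0.893).

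MYL4, the atrial essential light chain, was the least abundant of the 9 genes and did not pass in any comparison. Low PAP libraries held 1.94 at the lowest, 5.23 at the median and 17.3 at the highest RPKM, PH-healthy libraries 7.38, 11.3 and 5.73 RPKM and PH-failure libraries 29.6, 8.47 and 2.50 RPKM, from 46 to 408 reads per library. The groups overlapped, and PH-failure held both the highest library of all and, in replicate 3, the lowest but 1. The log2 fold change was 0.30 ± 0.62 (95% interval -1.04 to 1.65) in PH-healthy and 0.48 ± 0.62 (-0.86 to 1.83) in PH-failure (adjusted p = 0.730 and 0.557, limma), intervals that span both a fall and a rise. Without PH-failure replicate 1 the PH-failure value was -0.32, and without replicate 3 it was 1.24, neither of them called.

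The ratio of the 2 atrial light chains was tested directly. The log2 of MYL7 over MYL4 was lower by 3.24 in PH-healthy (9.44-fold, two-sided exact permutation p = 0.0119, adjusted p = 0.0476 over 36 tests) and by 3.09 in PH-failure, where the groups overlapped and it did not pass (8.53-fold, exact p = 0.0238, adjusted p = 0.0714). With both PH groups together it was lower by 3.17 (exact p = 0.00433, adjusted p = 0.0476). MYL4 over MYL3 did not pass in any comparison.

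MYL6, the essential light chain of smooth muscle and nonmuscle myosin, fell in PH-healthy. Low PAP libraries held 565 at the lowest, 735 at the median and 837 at the highest RPKM, and PH-healthy libraries 437, 438 and 391 RPKM, all below the low PAP range. PH-failure libraries held 658, 415 and 652 RPKM, of which replicate 2 lay with PH-healthy and replicates 1 and 3 within the low PAP range. Means were 727 ± 102 (SD, n = 6), 422 ± 26.9 (n = 3) and 575 ± 138 RPKM (n = 3). The log2 fold change was -0.77 ± 0.17 in PH-healthy (adjusted p = 0.00581) and -0.36 ± 0.17 in PH-failure (adjusted p = 0.109, limma), and in PH-healthy it was -0.74 within series 55 and -0.77 within series 56. The PH-healthy call held in 22 of 22 alternative settings. In PH-failure 2 of 22 passed: after median-ratio scaling it was -0.61 (adjusted p = 0.0347), and without low PAP replicate 6, the lowest of that group, the adjusted p was 0.0467.

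MYL6 was 6.02% to 7.63% of the summed RPKM of MYL3, MYL4 and MYL6 in low PAP and 4.24% to 4.85% in PH-healthy. It was 5.74%, 4.41% and 10.04% in the PH-failure libraries. The log2 of MYL6 over MYL3 was lower by 0.63 in PH-healthy (two-sided exact permutation p = 0.0119, adjusted p = 0.0476 over 36 tests) and by 0.09 in PH-failure (exact p = 0.702).

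MYLK3 and MYBPC3, the kinase and the binding protein that act on the thick filament, did not pass in any comparison. MYLK3 libraries of low PAP held 30.7 at the lowest, 42.6 at the median and 66.9 at the highest RPKM, those of PH-healthy 48.9, 36.8 and 66.8 RPKM and those of PH-failure 43.3, 42.0 and 38.3 RPKM, all PH values lying within the low PAP range. Its log2 fold change was 0.14 ± 0.24 (95% interval -0.37 to 0.65) in PH-healthy and -0.12 ± 0.24 (-0.63 to 0.39) in PH-failure. MYBPC3 libraries of low PAP held 520.2 at the lowest, 640.0 at the median and 751 at the highest RPKM, those of PH-healthy 652, 605 and 693 RPKM and those of PH-failure 721, 610.3 and 392 RPKM, with replicate 3 of PH-failure below all others. Its log2 fold change was 0.07 ± 0.18 (95% interval -0.31 to 0.45) in PH-healthy and -0.15 ± 0.18 (-0.53 to 0.23) in PH-failure. The sign of both genes' changes in PH-healthy, and that of MYBPC3 in PH-failure, depended on the scaling.

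Relative to MYH7, which it binds, MYBPC3 was lower in PH. It stood at 24.1% ± 1.86 of MYH7 in RPKM in low PAP (SD, n = 6), 17.9% ± 0.85 in PH-healthy (n = 3) and 17.7% ± 2.95 in PH-failure (n = 3). The log2 ratio was lower by 0.43 in PH-healthy (two-sided exact permutation p = 0.0119, adjusted p = 0.0476 over 36 tests). In PH-failure it was lower by 0.45, with 1 library overlapping low PAP (exact p = 0.0238, adjusted p = 0.0714). Both library series gave it the same sign, with -0.41 and -0.44 in PH-healthy and -0.55 and -0.41 in PH-failure for series 55 and 56.

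Between PH-failure and PH-healthy none of the 9 genes passed (limma adjusted p of 1.00 for each), beside 0.00879% of all tested genes, which is 1 gene. At an unadjusted limma p under 0.05 there were 308 of 11374 genes, fewer than that threshold would pass with no difference between the groups. Among them MYH7B ranked 188 and MYL6 308 by p, and neither passed after adjustment. MYH7B was lower in PH-failure, with no overlap between the 3 and 3 libraries and a log2 fold change of -0.42 ± 0.17 (95% interval -0.79 to -0.04); groups of all tested genes did not overlap in 5.74%. MYL6 was higher at 0.42 ± 0.19 (0.00 to 0.83). For MYL7 the difference was 0.28 ± 0.42 with an interval of -0.63 to 1.18, which holds both a lower and a higher level in PH-failure. For MYL2, MYL3, MYH7 and MYBPC3 the values were -0.29 ± 0.25, -0.12 ± 0.20, -0.20 ± 0.21 and -0.22 ± 0.20. The exact permutation tests of the ratios cannot go below 0.1 with 3 against 3 libraries.

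Of 4 smooth muscle and nonmuscle heavy chains, 3 rose in each PH group, beside 28.0% of all tested genes in PH-failure and 26.6% in PH-healthy. The median log2 fold change of the 4 was 1.41 in PH-failure and 0.98 in PH-healthy, beside 0.21 and 0.18 over all tested genes. Smooth muscle MYH11 rose from 2.95 ± 1.40 RPKM in low PAP (SD, n = 6) to 7.20 ± 1.47 in PH-healthy (n = 3; adjusted p = 0.0154, limma) and 13.0 ± 7.67 in PH-failure (n = 3; adjusted p = 0.00249). Nonmuscle MYH10 rose from 2.94 ± 1.12 to 9.18 ± 1.30 and 12.6 ± 7.79 RPKM, and MYH9 from 13.1 ± 3.48 to 24.0 ± 2.69 and 31.2 ± 15.0 RPKM. MYH14 did not pass. Skeletal MYH1 and MYH2, and MYH13 and MYH15, were below the filter, and the summed RPKM of these 4 was at most 0.418 in low PAP, 0.156 in PH-healthy and 0.229 in PH-failure. The rows named MYHC-FETAL and MYHC-EMBRYONIC were not in the list and are given without a test. The former held 0 to 5 reads in the low PAP libraries and 10 to 153 in the PH libraries, and the latter 3 to 14 reads over all libraries. Of 3 other light chains tested, MYL9, the regulatory light chain of smooth muscle, rose in PH-failure (0.66 ± 0.23, adjusted p = 0.0407), and MYL6B rose in PH-healthy (0.65 ± 0.22, adjusted p = 0.0351, limma). Neither was called after median-ratio scaling, under which 0 of the 3 rose in either group. A second, less abundant row with the symbol MYL9 was not in the list and is given without a test. In reads not adjusted for depth it held 1364 to 2574 in low PAP, 3984 to 5595 in PH-healthy and 3571 to 4713 in PH-failure.

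The 9 tested smooth muscle markers include MYH11 and MYL9 themselves, so they are not independent of these rises. In PH-failure 7 of the 9 rose, and in PH-healthy 3 rose and 1 fell. Their summed RPKM was 714 to 912 in low PAP, 924 to 1392 in PH-healthy and 1041 to 1973 in PH-failure. MYL9 held most of this sum in each PH-failure library, so the sum says little of the other markers. Of 8 fibroblast markers 5 rose in PH-failure and 4 in PH-healthy, of 7 endothelial markers 4 and 3, and of 7 macrophage markers 6 and 3, with none that fell under the scaling as reported. Over all tested genes the share that rose was 28.0% in PH-failure and 26.6% in PH-healthy. The marker counts depend on the scaling. After median-ratio scaling the smooth muscle markers gave 4 rises and 1 fall in PH-failure, the fibroblast markers 3 rises in PH-failure and 1 rise and 1 fall in PH-healthy, the endothelial markers 2 rises in PH-failure and 2 rises and 1 fall in PH-healthy, and the macrophage markers 4 and 1 rises. After quantile normalization the smooth muscle markers gave 5 rises and 1 fall in PH-failure, the endothelial markers 2 rises and 1 fall in PH-healthy, and the macrophage markers 2 and 0 rises. Of 3 tested markers of fast skeletal muscle 1 (ACTN3) rose in each group as reported, but 0 rose in either group, and 1 fell in PH-failure, after median-ratio scaling and after quantile normalization. Of 7 markers of slow skeletal or Purkinje fibres 2 rose in PH-failure, and 6 rose and 1 fell in PH-healthy, where both other scalings gave 4 rises and 1 fall. The part of these cells in the levels of MYL6, MYL9 and MYH9 to MYH11 was not tested. None of 5 adipocyte markers passed as reported (1 fell in PH-healthy under both other scalings), and their sums were 37.0 to 264 RPKM in low PAP, 29.3 to 44.0 in PH-healthy and 49.4 to 1057 in PH-failure, the highest in replicate 3, in which MYL2, MYL3, MYH7 and MYBPC3 were the lowest of the PH libraries.

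Of 11 tested genes of light chain phosphorylation, 5 rose in PH-failure and 4 in PH-healthy, beside 28.0% and 26.6% of all tested genes that rose. None fell as reported. In PH-failure both median-ratio scaling and quantile normalization gave 3 rises and 1 fall. In PH-healthy the former gave 3 rises and the latter 2 rises and 1 fall. The genes that rose as reported were the kinases ROCK1 and ROCK2 and the myosin phosphatase targeting subunits PPP1R12A and PPP1R12B in both groups, and the smooth muscle kinase MYLK in PH-failure (1.02 ± 0.25, adjusted p = 0.0112, limma). ROCK2 rose from 7.49 ± 2.63 RPKM in low PAP (SD, n = 6) to 16.4 ± 1.18 in PH-healthy and 16.8 ± 7.86 in PH-failure (n = 3 each). The list holds both kinases that promote and phosphatase subunits that reverse phosphorylation, and its medians of 0.21 and 0.09 were near those of all genes.

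Among 6 tested genes of the M-band and titin, which anchor the thick filament, and of other myosin-binding proteins, 4 rose and 1 fell in each PH group. Over all tested genes 28.0% rose and 5.79% fell in PH-failure, and 26.6% rose and 8.15% fell in PH-healthy. Myomesin MYOM3 rose from 31.9 ± 11.9 RPKM in low PAP (SD, n = 6) to 85.9 ± 10.4 in PH-healthy (n = 3; adjusted p = 0.00419, limma) and 76.8 ± 28.4 in PH-failure (n = 3; adjusted p = 0.0102). MYOM1, MYOM2 and the giant spring protein titin (TTN) also rose in both, and the gene that fell was MYBPHL. The list median was 0.76 in PH-failure and 0.71 in PH-healthy, beside 0.21 and 0.18 over all tested genes. After median-ratio scaling 2 rose and 2 fell in PH-failure, and 3 rose and 1 fell in PH-healthy, while quantile normalization left the counts as they were.

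Of 10 genes for myosin folding and turnover, 3 rose in PH-failure and 5 in PH-healthy, beside 28.0% and 26.6% of all tested genes that rose. The PH-failure count is near that share, and none fell in either group as reported. With both PH groups together 7 rose and 1 fell, beside 37.3% and 10.4% of all tested genes. The pooled counts were 2 rises and 2 falls after median-ratio scaling. After median-ratio scaling 2 rose and 1 fell in PH-failure, and 3 rose and 1 fell in PH-healthy, and after quantile normalization 4 and 6 rose. The chaperone HSP90AB1 rose from 206 ± 11.8 RPKM in low PAP (SD, n = 6) to 328 ± 27.7 in PH-healthy (n = 3; adjusted p = 0.00438) and 373 ± 90.3 in PH-failure (n = 3; adjusted p = 0.00206, limma). The ubiquitin ligase subunit FBXO32 rose from 14.7 ± 5.44 to 39.9 ± 2.80 and 38.7 ± 15.2 RPKM, and HSP90AA1 rose in both groups. SMYD1, a muscle methyltransferase that acts with HSP90 on myosin, rose in PH-healthy (0.87 ± 0.21, adjusted p = 0.00933, limma), as did TRIM55.

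The genes whose levels most resembled those of 3 members over the 12 libraries were sought among 5236 genes with a mean log2(RPKM + 1) of at least 3. For MYL7 they were LAMTOR3, CHCHD1, NBN and PPP1CC, with Pearson correlations of 0.96, 0.96, 0.95 and 0.95 that largely follow the gap between low PAP and PH. Within the 6 low PAP libraries the same genes gave 0.69, 0.73, 0.95 and 0.75. For MYL4 they were EID1, NPPA, GRPEL2 and FHL2, at 0.78, 0.76, 0.75 and 0.75, so the atrial peptide gene stood second. For MYH7 they were LRRC20, SLC12A7, SLC25A1 and LDB3, at 0.96, 0.94, 0.93 and 0.93. These are the highest of many values and are given as a description, from libraries that also share depth and composition.

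In the authors' deposited table, which compares high with low PAP, MYL7 was 6.68-fold lower and MYL6 1.37-fold lower with a false discovery rate of 0.00835, while MYL3 had 0.205 and the second MYH7 row 0.204. In the authors' deposited table MYH7 was 1.28-fold and MYH7B 1.38-fold higher, both with a false discovery rate of 1. The authors' low PAP means differed by more than 1% from the means of the 6 libraries in 7534 of the tested genes, and these values are given as the authors' own.

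**Figure D5:**
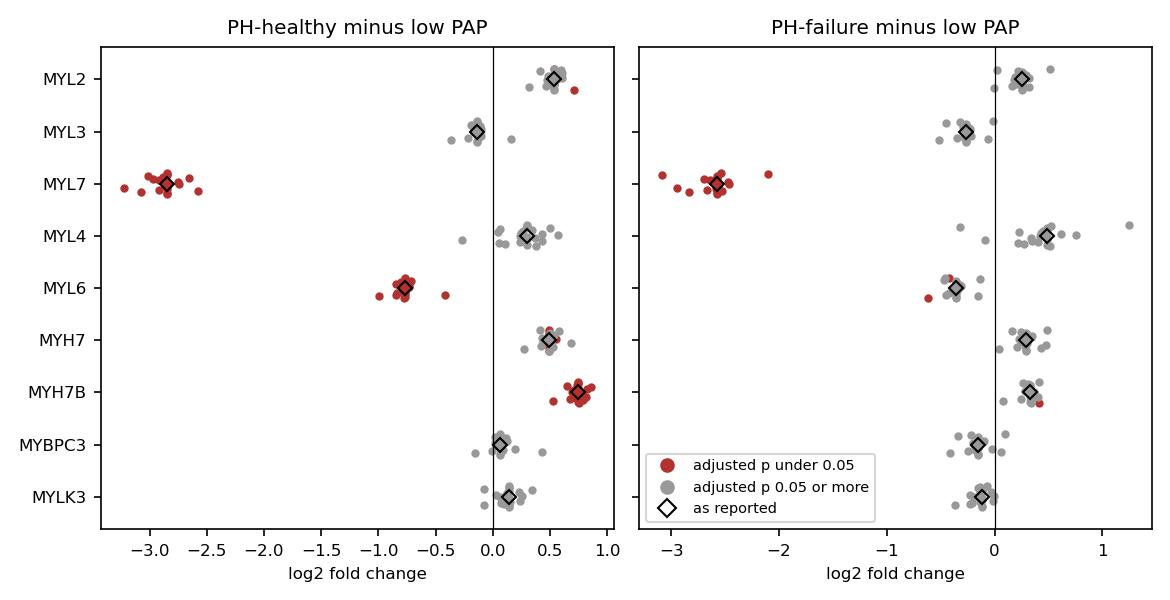
Log2 fold change (horizontal axes) of the 9 genes in PH-healthy and PH-failure against low PAP under 22 alternative settings each (points, red where the adjusted p was under 0.05) and as reported (open diamonds). MYL7 passed in 22 of 22 settings in both groups, MYL6 and MYH7B in 22 of 22 in PH-healthy, and MYH7 in 8 of 22 there.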

How the data were processed

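Right ventricle RNA was extracted with Trizol and sequenced from Illumina libraries, per the labels' protocols. The authors deposited RPKM per gene and library, normalized to exon length and mapped reads, per the file headers, with a signed fold, a p-value and a false discovery rate for high against low PAP. Aligner, strand, genome build and the test behind the p-value are not given in the sources used.

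The 11374 genes of 17284 above 0 that reached 1 RPKM in 3 or more libraries were tested on log2(RPKM + 1), a scale that understates changes of low genes, in 1 model of 3 groups with limma 3.58.1 (trend and robust moderation, R 4.3.3) and Benjamini-Hochberg adjustment. Whole reads were recovered from RPKM steps in 100.0% of tested genes within 0.05 reads (median 370 reads), which bounds counting error only, and limma-voom was run on them as an alternative. Ratios within libraries were compared by two-sided exact permutation tests over libraries. The scripts were tested on simulated data.

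The 9 genes, the 15 related lists and the alternatives were chosen with earlier results of these data known. The text names all 9 genes, for each list up to 4 genes of smallest p in PH-failure and in PH-healthy, 5 atrial markers and 4 most similar genes for each of 3 members; 1 listed atrial marker is not reported here. Replicate numbers name animals and did not pair them. Alternatives were other pseudocounts, filters, scalings, moderation, library series, replicate block, subsets of groups and leaving out each library.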

Additional observations from a re-analysis of the deposited data

Results flagged for a closer look

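Over 20 groups of 6 low PAP values, 2 single libraries stood apart from the other 5 by Dixon's criterion, which flags about 1 in 20 groups by chance. In low PAP replicate 6 the log2 ratio of MYBPC3 to MYH7 was -2.28, the lowest of the group, with a gap to the next library of 0.706 of the group's range against a critical value of 0.625. In low PAP replicate 3 the log2 ratio of MYLK3 to MYL2 was -9.87, the lowest of its group, with a gap of 0.633 of the range.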

How the results depend on the processing

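MYL7 kept its direction and its call in both PH groups in each of the 22 settings, with a log2 fold change from -3.22 to -2.57 in PH-healthy and from -3.08 to -2.10 in PH-failure. MYL6 and MYH7B did so in PH-healthy, and with both PH groups together MYH7B lost its call after median-ratio scaling alone (0.30, adjusted p = 0.0946, limma). The MYH7 value in PH-healthy was 0.41 to 0.58 with 1 library left out, and its call was lost for 8 of the 12. MYL2 in PH-healthy, not called as reported, was called in 4 of 22. Calls over all genes in PH-failure against low PAP numbered 3848 as reported, 2551 after quantile normalization, 1379 with the replicate block and 1540 to 4669 with 1 library left out, lowest without PH-failure replicate 3 and 2367 without replicate 2. In PH-healthy they numbered 3951, with 1834 with the replicate block and 1890 to 4643 with 1 library left out. With both PH groups together the replicate block gave 3027 in place of 5421. For PH-failure against PH-healthy the count was 1, and 0 with the library series as a term, with the replicate block, with only the groups compared and with limma-voom, where unadjusted p under 0.05 numbered 414, 250, 230 and 277, and 0 to 4 with 1 library left out. Replicate numbers did not pair the animals (correlations of deviations from -0.26 to 0.19), and the replicate block, which assumes that they do, left the calls of MYL7, MYL6 and MYH7B in PH-healthy as they were. Of the 9 planned ratios in PH-failure, 1 passed as reported and 2 with a pseudocount of 1.

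Reversed signs concerned genes that were not called, and the cause was not tested. Median-ratio scaling gave -0.00705 for MYL2 in PH-failure, -0.0780 and -0.22 for MYLK3 in PH-healthy and in both PH groups, and -0.15 for MYBPC3 in PH-healthy. Quantile normalization gave 0.16 and 0.0493 for MYL3 in PH-healthy and in both groups, -0.0618 for MYLK3 in both groups, and 0.0575 and 0.24 for MYBPC3 in PH-failure and in both groups. Scaling to genes outside the mitochondrial genome gave -0.0686 for MYLK3 in both groups and -0.00288 for MYBPC3 in PH-healthy. The replicate block gave MYL4 -0.0844 in PH-failure, -0.27 in PH-healthy and -0.18 in both groups, and MYBPC3 0.0885 in both groups. For MYL4 in PH-failure against PH-healthy the library series as a term gave -0.0797 and limma-voom -0.0348. With 1 library left out, PH-failure against low PAP ranged from -0.32 to 1.24 for MYL4 and -0.34 to 0.0989 for MYBPC3. PH-healthy against low PAP ranged from -0.0753 to 0.35 for MYLK3. PH-failure against PH-healthy ranged from -0.31 to 0.13 for MYL3, -0.62 to 0.94 for MYL4, -0.23 to 0.75 for MYL7 and -0.41 to 0.0314 for MYBPC3. Both PH groups against low PAP ranged from -0.00979 to 0.77 for MYL4, -0.0971 to 0.12 for MYLK3 and -0.14 to 0.0832 for MYBPC3.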

Other observations

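Of 12 tested genes listed as ventricular markers, 3 fell in PH-failure and none rose under the scaling as reported, beside 5.79% of all tested genes lower and 28.0% higher. After quantile normalization none of the 12 fell in either PH group and 2 rose with both PH groups together. The 3 that fell were cardiac troponin I (TNNI3), cardiac alpha-actin (ACTC1) and phospholamban (PLN), the inhibitor of the calcium pump. From the same list MYL2, MYL3, MYH7, IRX4 and HEY2 did not pass in PH-failure. ACTC1 was at 7032 ± 1029 RPKM in low PAP (SD, n = 6) and 3599 ± 2588 in PH-failure (n = 3; -1.36 ± 0.45, adjusted p = 0.0345, limma). TNNI3 fell in PH-healthy too (-0.52 ± 0.19, adjusted p = 0.0443), where the slow skeletal troponin I gene TNNI1 also fell, from 15.3 ± 14.3 to 2.94 ± 0.778 RPKM (adjusted p = 0.0129), and the slow skeletal troponin T gene TNNT1 rose, from 146 ± 80.5 to 512 ± 101 RPKM (adjusted p = 0.0288, limma), a call lost after median-ratio scaling.

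The 3 PH-failure animals differed among themselves, a comparison chosen after their values were seen and given without a test. Replicate 1 had the highest MYL7, MYL4 and NPPA of the PH libraries. Replicate 3 had the lowest MYL2, MYL3, MYH7 and MYBPC3 of the PH libraries. It also had the highest MYH9, at 48.6 RPKM against 22.8 and 22.3 in replicates 1 and 2. In the more abundant MYL9 row it was the highest as well, at 1714 RPKM against 727 and 959. The 9 genes took 6.49%, 7.34% and 4.37% of the reads in the table's genes in replicates 1 to 3.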
